A study of Mus musculus with 6 samples.

Results

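The voltage-gated sodium channel genes examined here are 8 subunit genes, out of 18194 genes on the array, measured in motor neurons taken from mouse brainstem, which drive the muscles of the head and neck. They were followed through all probe sets that the platform annotation maps to exactly 1 of the symbols Scn1a, Scn2a, Scn3a, Scn8a, Scn9a, Scn2b, Scn3b and Scn4b. That rule gave 25 of the 45037 probe sets on the mouse Affymetrix array, control probe sets left aside. The samples were 3 labelled SOD1 and 3 labelled wild type (WT), 1 array each. SOD1 encodes copper-zinc superoxide dismutase, an antioxidant enzyme whose mutant forms are used to model amyotrophic lateral sclerosis in mice. The sources used here do not give the allele, its promoter, the strain, the ages or how the neurons were collected. RNA of both groups went through 2 rounds of T7-based amplification, a method that copies transcripts from the poly(A) tail. Whether each sample is a different animal is not stated in the labels, and the p-values therefore reflect only the spread among these 6 arrays, which may be partly technical.

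A voltage-gated sodium channel opens when the membrane depolarises and carries the inward current that makes the rising phase of the action potential. Each channel has 1 large pore-forming alpha subunit, with voltage sensors and a gate that inactivates it, and smaller beta subunits that cross the membrane once and tune gating and cell adhesion. In motor neurons the channels are packed at the axon initial segment, where spikes start, and at the nodes of Ranvier, where they are renewed along the myelinated axon. Scn8a encodes the alpha subunit that dominates at mature nodes and at the distal initial segment, and mice that lack it become paralysed. Scn1a encodes an alpha subunit found in many brainstem and spinal neurons, Scn2a one of unmyelinated axons and immature nodes, Scn3a one that is high in the embryonic brain, and Scn9a one known best from sensory and sympathetic neurons. Scn2b and Scn4b encode beta subunits that are bound to the alpha subunit by a disulfide bond, and Scn3b one that is not.

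Scn8a and Scn4b are the 2 genes of the set whose highest-signal probe set was lower on every SOD1 array than on every WT array. Their start regions are shown for that reason, from RefSeq (GRCm38.p6), 250 bases before to 50 after the start, 5′ to 3′, with CG dinucleotides in capitals. The Scn8a region is chr15:100870395-100870694 on the plus strand, and the Scn4b region is chr9:45138374-45138673 on the plus strand.
Scn8a: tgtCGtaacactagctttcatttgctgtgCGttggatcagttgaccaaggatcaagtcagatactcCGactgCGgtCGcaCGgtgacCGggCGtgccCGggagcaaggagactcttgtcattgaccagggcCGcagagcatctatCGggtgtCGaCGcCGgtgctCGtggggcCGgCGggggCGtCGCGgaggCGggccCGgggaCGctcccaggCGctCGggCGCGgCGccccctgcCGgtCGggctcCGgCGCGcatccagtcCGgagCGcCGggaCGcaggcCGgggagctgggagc
Scn4b: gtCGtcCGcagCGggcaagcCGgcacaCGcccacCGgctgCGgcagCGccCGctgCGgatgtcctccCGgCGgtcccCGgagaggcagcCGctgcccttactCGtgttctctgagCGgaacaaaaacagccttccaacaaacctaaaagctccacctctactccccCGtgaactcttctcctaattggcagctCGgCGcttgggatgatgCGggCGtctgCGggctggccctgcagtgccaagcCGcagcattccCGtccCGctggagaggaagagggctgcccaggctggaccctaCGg
The Scn8a region held 38 CG dinucleotides at 70.0% G plus C, and 4.95% of the 32851 start regions in the table held as many or more. The Scn4b region held 26 at 66.3%, a number reached by 16.9% of the table, whose median was 7. A second Scn8a start in the table held 12. The arrays read RNA and not these regions, so the letters describe the genes and carry no result.

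Signals are given as log2(value + 16) after quantile normalisation, and differences as SOD1 minus WT on that scale with the standard error (SE) of the fit, from 3 arrays per group. The test was limma with Benjamini-Hochberg adjustment over the 27022 probe sets whose average signal exceeded the array's 40th percentile. The added 16 understates the change of low signals, and precision is limited by having 3 arrays a group. Levels of different probe sets are not comparable, so each probe set is compared only with itself. Each array's background level, taken from 27 Bacillus controls at their 95th percentile, lay between 7.21 and 7.61. Of the 25 probe sets, 18 passed the filter and were tested, and the other 7 lay near or under that level.

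The arrays differed in ways that touch the comparison. Xist was at 14.71 and 14.63 on SOD1 replicates 1 and 2, against 7.33 on SOD1 replicate 3 and 7.27 to 7.75 on the WT arrays. Sex may therefore differ between the groups, and results are given below also for SOD1 replicate 3 against the WT arrays alone. SOD1 replicate 3 also stood apart in some of the 13 markers of other neuron types. Npy was at 13.89 and Gad1 at 11.48, against at most 8.95 and 7.56 on the other arrays. Others of that list did not set it apart. Tph2 was at 9.65 (9.21 to 10.94 on the other arrays), Pvalb at 11.36 (9.10 to 12.04) and Th at 7.06 (6.16 to 8.23). Several motor neuron markers were high on all 6 arrays, with Isl1 at 14.95 to 15.42, Prph at 15.79 to 16.27 and Chodl at 14.99 to 15.67. Others were low, with Chat at 8.40 to 9.78, Isl2 at 8.70 to 9.77 and Mnx1 at or below background on 5 arrays.

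None of the 18 tested probe sets passed the adjusted threshold of 0.05, against 50 of the 27022 tested on the array (0.185%, made up of 0.122% lower and 0.0629% higher in SOD1). At an unadjusted p under 0.05, 5 of the 18 passed by limma, 4 lower and 1 higher in SOD1, against 14.7% of all probe sets (7.58% lower and 7.09% higher). In 4 of the 18 every SOD1 array lay below every WT array, against 9.81% of all, and in 0 every SOD1 array lay above, against 10.5% of all. The estimate was negative for 10 of the 18, against 50.5% of all, and the median difference was -0.19, against -0.01 over all. That median moved toward 0 whichever array was left out, to between -0.13 and -0.04, the last without SOD1 replicate 3. The 4 separated probe sets were 3 of Scn8a and the 1 of Scn4b. The genes were chosen with earlier results of these arrays known, so these counts describe them and support nothing further.

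**Figure D1:**
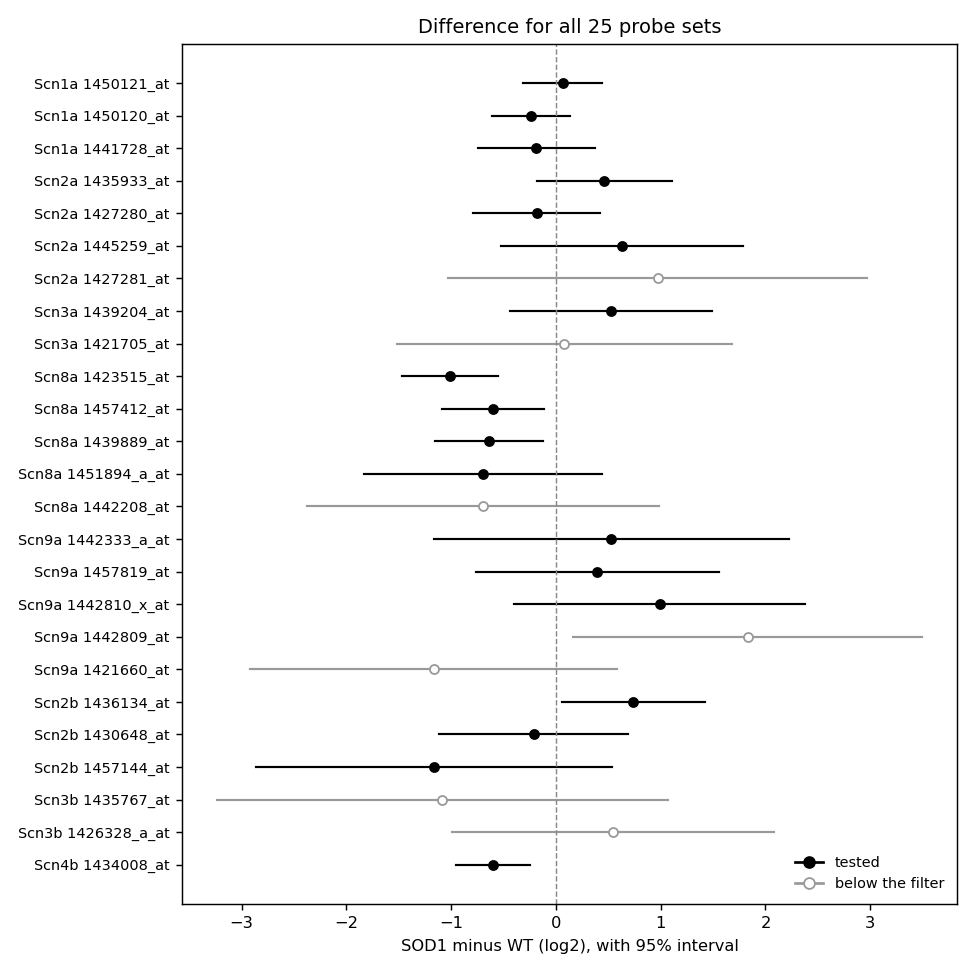
SOD1 minus WT on the log2 scale (x axis) for each of the 25 probe sets, grouped by gene, as points with 95% intervals from limma. Filled points were tested and open points lay below the filter; all 5 Scn8a points lie left of 0, with the intervals of 3 of them and of Scn4b wholly below it, and those of Scn2b 1436134_at and Scn9a 1442809_at wholly above it.

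Scn8a was read by 5 probe sets, all with negative estimates. The one with the highest signal, 1423515_at, had deposited signals of 19435, 12671 and 11164 in SOD1 replicates 1, 2 and 3, against 26274, 25845 and 31496 in WT replicates 1, 2 and 3. On the log2 scale these were 14.25, 13.63 and 13.47 in SOD1, against 14.70, 14.68 and 15.002 in WT. Every SOD1 array lay below every WT array, with SOD1 replicate 1 nearest to WT and SOD1 replicate 3 farthest. The group means were 13.78 ± 0.41 in SOD1 and 14.79 ± 0.18 in WT (SD, n = 3 each). The difference was -1.01 ± 0.21, or 2.02-fold lower, with a 95% interval of -1.47 to -0.56 (limma, adjusted p = 0.0927). It ranked 139th by p among the 27022 probe sets and did not pass the threshold.

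A pair of further Scn8a probe sets of high signal gave smaller differences in the same direction. Probe set 1457412_at was at 13.04, 13.11 and 12.62 in SOD1, against 13.51, 13.25 and 13.81 in WT, a difference of -0.60 ± 0.22 (limma, adjusted p = 0.245). Probe set 1439889_at was at 12.99, 12.84 and 12.22 in SOD1, against 13.26, 13.24 and 13.45 in WT, a difference of -0.64 ± 0.24 (limma, adjusted p = 0.251). In both, the groups did not overlap and SOD1 replicate 3 was the lowest array. The unadjusted p was 0.0192 and 0.0204 by limma.

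The last 2 Scn8a probe sets had low signals. Probe set 1451894_a_at was at 7.73, 8.32 and 8.01 in SOD1, against 7.99, 8.75 and 9.40 in WT, above background on every array, and differed by -0.69 ± 0.52 (limma, adjusted p = 0.570) with overlapping groups. Probe set 1442208_at was under background on all 6 arrays and was not tested. Its estimate was -0.70, with a 95% interval of -2.38 to 0.98, and it gives no level for Scn8a.

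The difference of 1423515_at was the largest of the 4 tested, and whether it exceeded the others was compared within arrays, over 6 pairs of probe sets. Relative to 1439889_at its SOD1 minus WT value differed by a further -0.38, at an exact two-sided permutation p of 0.1, the smallest that 3 arrays against 3 allow (adjusted p = 0.6 over the pairs). Relative to 1457412_at the further difference was -0.41 (exact permutation p = 0.3), and relative to 1451894_a_at -0.32 (exact permutation p = 0.5). The other 3 pairs differed by 0.04 to 0.09, at exact permutation p of 0.7 or 0.8. This permutation test cannot reach 0.05 with 3 arrays a group, so it does not settle whether the probe sets differed by unequal amounts.

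**Figure D2:**
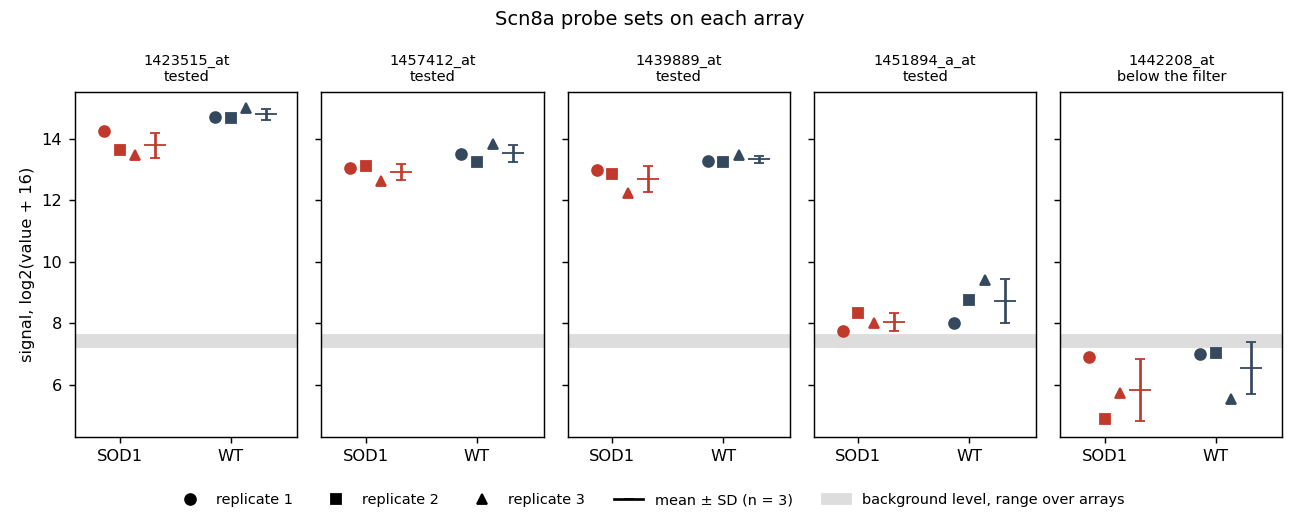
Signal as log2(value + 16) (y axis) of the 5 Scn8a probe sets on each array, SOD1 at left and WT at right in each panel, with symbols for the replicate, bars for mean ± SD and a grey band for the range of the background level. In the left 3 panels every SOD1 point lies below every WT point, and in the right 2 the groups overlap at or near background.

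How near Scn8a came to the threshold depended on single arrays of both groups. Without SOD1 replicate 1, the SOD1 array with the highest value, 1423515_at was at -1.24 and passed (limma, adjusted p = 0.0483), and it was then the 1 probe set of the 18 that did. Leaving out any of the other 5 arrays left it short of the threshold. The limma adjusted p was 0.217 without SOD1 replicate 2, 0.234 (at -0.85) without SOD1 replicate 3, 0.198 without WT replicate 1, 0.266 without WT replicate 2 and 0.141 without WT replicate 3. For SOD1 replicate 3 against the WT arrays, all 4 low in Xist, it was at -1.31 (limma, adjusted p = 0.0779, with the lone array assumed to vary like WT), and with the Xist signal as a covariate it was also at -1.31 (adjusted p = 0.0906). For 1457412_at and 1439889_at SOD1 replicate 3 against the WT arrays gave -0.90 and -1.10, and without SOD1 replicate 3 they were at -0.45 and -0.40.

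Scn1a was read by 3 probe sets, and none separated the groups. The highest, 1450121_at, was at 15.36, 15.89 and 15.57 in SOD1, against 15.53, 15.25 and 15.84 in WT, with the arrays of both groups mixed. Its difference was 0.07 ± 0.17, with a 95% interval of -0.31 to 0.44 (limma, adjusted p = 0.893). Probe set 1450120_at was at 14.57, 14.61 and 14.30 in SOD1, against 15.03, 14.50 and 14.66 in WT, a difference of -0.24 ± 0.17 (limma, adjusted p = 0.554). Probe set 1441728_at was at 11.90, 11.75 and 11.55 in SOD1, against 12.13, 12.02 and 11.62 in WT, a difference of -0.19 ± 0.25 with an interval of -0.75 to 0.37. With arrays centred on their medians, 1450121_at was at 0.30 and 1450120_at at -0.073. A difference as large as the -1.01 of Scn8a 1423515_at, whose own interval was -1.47 to -0.56, lies outside all 3 Scn1a intervals. The -0.60, -0.64 and -0.69 of the other tested Scn8a probe sets lie inside the interval of 1441728_at. The -0.60 also lies inside that of 1450120_at (-0.61 to 0.14).

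Scn2a had 4 probe sets, of which 3 were tested and disagreed in sign. Probe set 1435933_at was at 12.94, 13.28 and 12.32 in SOD1, against 12.57, 11.94 and 12.64 in WT, a difference of 0.46 ± 0.29 (limma, adjusted p = 0.498). SOD1 replicate 3 lay inside the WT range there, and for that array against WT the difference was -0.07. Probe set 1427280_at was at 11.76, 12.20 and 11.86 in SOD1, against 12.14, 11.69 and 12.54 in WT, a difference of -0.19 ± 0.28. Probe set 1445259_at, of low signal, was at 8.90, 8.18 and 8.003 in SOD1, against 7.49, 8.09 and 7.63 in WT, a difference of 0.63 ± 0.53. The fourth, 1427281_at, was at or below background on 2 SOD1 and 2 WT arrays and was not tested.

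Scn3a, the embryonic alpha subunit gene, was read near the low end. Probe set 1439204_at was at 9.14, 9.41 and 9.83 in SOD1, against 9.52, 8.26 and 9.03 in WT, a difference of 0.52 ± 0.44 with an interval of -0.44 to 1.49 (limma, adjusted p = 0.618). Its other probe set, 1421705_at, was at or below background on all 6 arrays. No shift of Scn3a toward higher levels was detectable at this precision.

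Scn9a had 5 probe sets whose values spread widely within each group. Probe set 1442333_a_at was at 10.89, 8.72 and 10.07 in SOD1, against 11.20, 7.87 and 9.01 in WT, a difference of 0.53 ± 0.77 (limma, adjusted p = 0.789). Within both groups replicate 1 was the highest array and replicate 2 the lowest, although nothing in the labels ties arrays of the same number. Probe sets 1457819_at and 1442810_x_at gave 0.40 ± 0.53 and 0.99 ± 0.63, with the groups overlapping. Of the 2 left untested, 1442809_at was at 7.46, 8.47 and 8.51 in SOD1, against 7.30, 5.18 and 6.47 in WT, where every SOD1 array was higher but 2 WT arrays were at or below background. The other, 1421660_at, had an estimate of -1.17 with an interval of -2.92 to 0.59, so the probe sets of this gene do not share a sign.

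Among the beta subunit genes, Scn4b had groups that did not overlap, and the probe sets of Scn2b differed in sign. Scn4b, whose product carries a tail that can block the open channel and allow a resurgent current, had 1 probe set, 1434008_at. It was at 15.24, 15.10 and 14.62 in SOD1, against 15.51, 15.72 and 15.54 in WT, and every SOD1 array lay below every WT array. The means were 14.99 ± 0.32 in SOD1 and 15.59 ± 0.11 in WT (SD, n = 3 each), a difference of -0.60 ± 0.16 or 1.52-fold lower (limma, adjusted p = 0.145, unadjusted p = 0.00325). The estimate moved with the scaling, to -0.49 on the deposited scale and -0.39 when arrays were centred on their medians. For SOD1 replicate 3 against the WT arrays it was -0.95 (adjusted p = 0.0890). Leaving that array out gave -0.42 (limma, adjusted p = 0.310).

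Scn2b was read by 3 probe sets that disagreed. The highest, 1436134_at, was at 12.70, 12.26 and 11.57 in SOD1, against 11.62, 11.49 and 11.22 in WT, a difference of 0.74 ± 0.31 (limma, adjusted p = 0.309, unadjusted p = 0.0366). SOD1 replicate 3 lay within the WT range, and for that array against WT the difference was 0.13. Probe set 1430648_at was at 10.38, 9.32 and 9.15 in SOD1, against 9.97, 10.04 and 9.46 in WT, a difference of -0.21 ± 0.41. Probe set 1457144_at was at 8.67, 6.02 and 6.32 in SOD1, against 7.80, 8.77 and 7.92 in WT, where SOD1 replicates 2 and 3 were at or below background, and differed by -1.16 ± 0.77. The 2 probe sets of Scn3b, 1435767_at and 1426328_a_at, were at or below background on 4 and on all 6 arrays, and neither was tested.

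**Figure D3:**
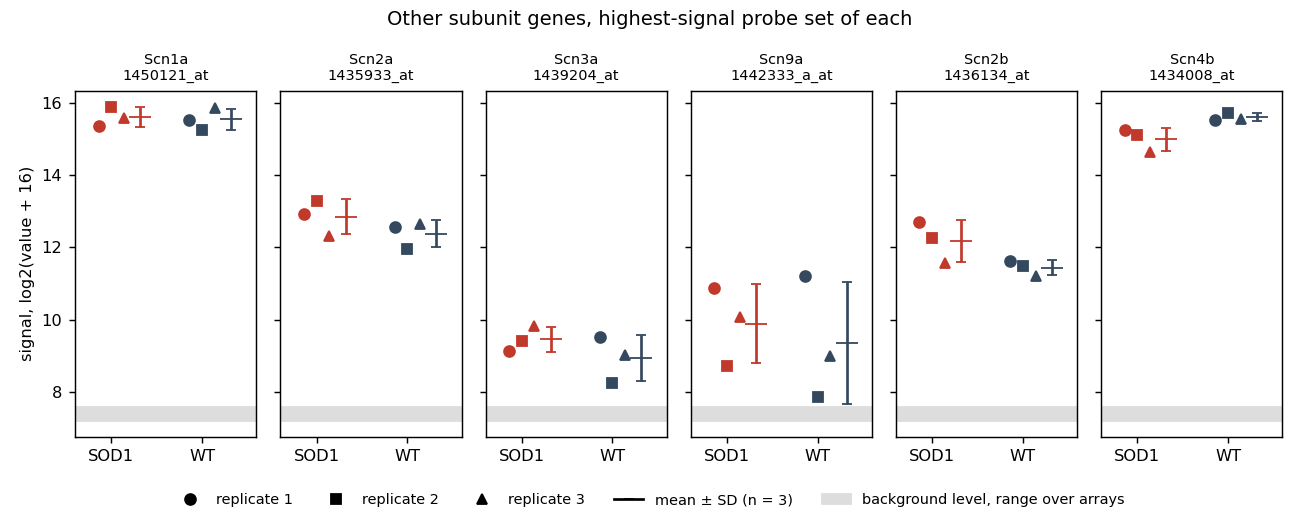
Signal as log2(value + 16) (y axis) of the highest-signal probe set of 6 other subunit genes on each array, SOD1 at left and WT at right in each panel, with bars for mean ± SD and a grey band for the background level. The 3 SOD1 points of Scn4b lie below its WT points at 14.62 to 15.24, and in the other 5 panels the groups overlap.

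Whether Scn8a differed more than the other subunit genes was compared within arrays, which takes out any factor common to an array. The value was the log2 signal of Scn8a 1423515_at minus that of the highest-signal probe set of each of the 7 other genes. Only its shift between the groups is interpretable. Relative to Scn1a, Scn8a was shifted by -1.08 in SOD1, relative to Scn2a by -1.47, relative to Scn3a by -1.54 and relative to Scn2b by -1.75. In these 4 comparisons every SOD1 array lay below every WT array, at an exact two-sided permutation p of 0.1, the smallest possible (adjusted p = 0.175 over the 7). Relative to Scn4b the shift was -0.41 (exact permutation p = 0.2) and relative to Scn9a -1.54 (exact permutation p = 0.2), with the groups overlapping in both. The comparison with Scn3b, whose probe set was largely at background, gave 0.07 (exact permutation p = 1). The comparisons share the same Scn8a values and were added after these values had been seen. They also depend on the probe sets used. The Scn8a one had the largest difference of the 4 tested (-1.01, the others -0.60 to -0.69). Those of Scn2a and Scn2b had positive estimates (0.46 and 0.74). Against that, 1 tested Scn2a probe set (-0.19) and 2 of Scn2b (-0.21 and -1.16) were negative.

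**Figure D4:**
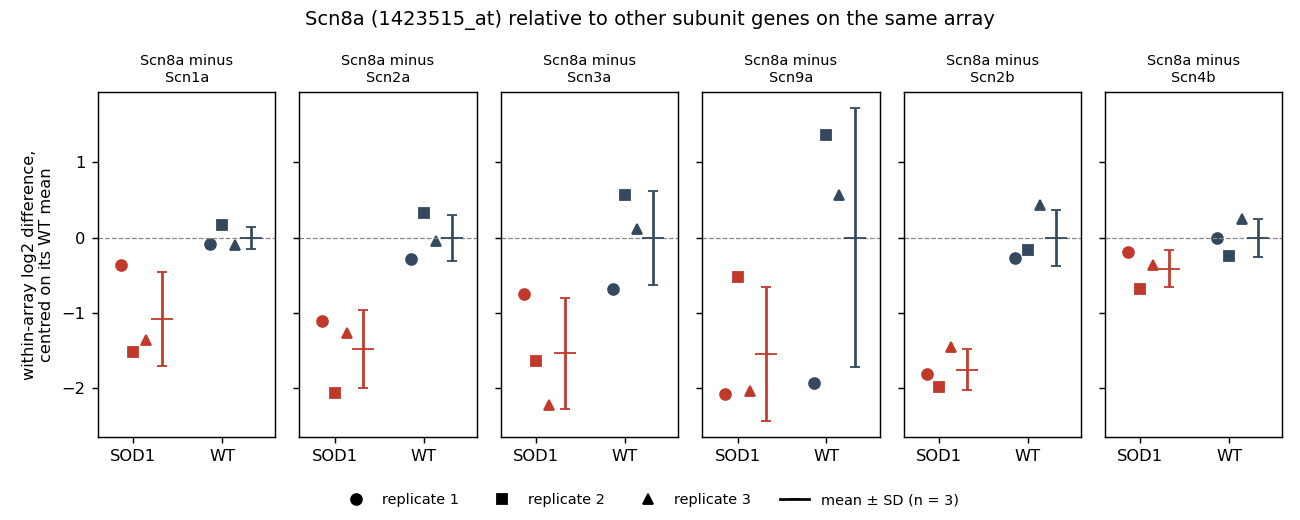
Log2 signal of Scn8a 1423515_at minus that of another subunit gene on the same array (y axis, centred on the WT mean of each panel), SOD1 at left and WT at right, with bars for mean ± SD. The SOD1 points lie below the WT points for Scn1a, Scn2a, Scn3a and Scn2b, and overlap them for Scn9a and Scn4b.

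Channels work within a protein scaffold, and a list of 24 genes of the axon initial segment and the node was examined beside them. It had 51 probe sets of 20 genes tested, of which 0 passed by limma, and at an unadjusted p under 0.05 there were 11 lower and 2 higher, where the shares over all probe sets were 7.58% and 7.09%. In 10 every SOD1 array lay below every WT array and in 3 above, where the shares over all were 9.81% and 10.5%, and the median difference was -0.13, against -0.01 over all probe sets. Kcna2, a potassium channel of the region beside the node, had the smallest p. Its probe set 1439872_at was at 13.59, 13.64 and 13.10 in SOD1, against 14.74, 14.49 and 14.28 in WT, a difference of -1.06 ± 0.20 (limma, adjusted p = 0.0651). A second tested Kcna2 probe set, 1440759_at, gave -0.43. The call of 1439872_at depended on the setting: it passed with a filter at the 60th percentile (adjusted p = 0.0401) and with array weights (-1.09, adjusted p = 0.0414).

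Ank3 encodes ankyrin-G, which anchors sodium channels at the initial segment and the node. Its probe set 1452124_at was at 15.05, 15.04 and 14.85 in SOD1, against 15.67, 15.49 and 15.45 in WT, a difference of -0.55 ± 0.12 (limma, adjusted p = 0.110). The groups did not overlap there, while other Ank3 probe sets tested ran from -0.95 to 0.43. Kcna1 is a partner of Kcna2 in the same channels. On 1417416_at it was at 15.26, 14.66 and 14.86 in SOD1, against 15.48, 15.44 and 15.58 in WT. The difference was -0.58 ± 0.16 (limma, adjusted p = 0.147). The other tested Kcna1 probe sets gave -0.32 (1437230_at) and -0.21 (1455785_at), with the groups overlapping in both. Bcan, which encodes brevican of the matrix around initial segments and nodes, differed by -0.57 ± 0.17 on 1441899_x_at (limma, adjusted p = 0.174). The other tested Bcan probe set, 1416718_at, gave -0.53 ± 0.25 (limma, adjusted p = 0.358). With arrays centred on their medians, Ank3 1452124_at was at -0.35 and Kcna1 1417416_at at -0.38. None of these passed.

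A list of 27 genes that modify or regulate the channels had 52 probe sets of 20 genes tested, with 0 past the threshold by limma, 6 lower and 5 higher at an unadjusted p under 0.05, where the shares over all probe sets were 7.58% and 7.09%, and a median of -0.01. Fgf11, which encodes an intracellular factor of the family that binds the tails of alpha subunits, was at 13.23, 13.01 and 12.89 in SOD1, against 13.58, 13.95 and 13.98 in WT, a difference of -0.79 ± 0.19 (limma, adjusted p = 0.125). Ptprz1, a receptor phosphatase also made by astrocytes, differed by 1.37 ± 0.34 on 1418690_at and by 0.97 ± 0.28 on 1452284_at (limma, adjusted p = 0.131 and 0.157). Rest encodes a repressor of neuronal genes, sodium channel genes among them. Its probe set 1428227_at was at 9.32, 9.42 and 9.26 in SOD1, against 8.09, 6.68 and 7.69 in WT, with WT replicate 2 under background, a difference of 1.84 ± 0.51 (limma, adjusted p = 0.151). The other tested Rest probe set, 1425565_at, had mean signals of 9.39 in SOD1 and 9.41 in WT and differed by -0.02 ± 0.36 (limma, adjusted p = 0.984), with the groups overlapping. The groups did not overlap for 1428227_at, the Fgf11 probe set or the named Ptprz1 probe sets, and none passed. The other tested Ptprz1 probe set, 1427019_at, differed by 0.97, also without overlap (limma, adjusted p = 0.205). Over the 52 probe sets, every SOD1 array lay below every WT array in 7 and above in 8. The shares over all probe sets were 9.81% and 10.5%.

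**Figure D5:**
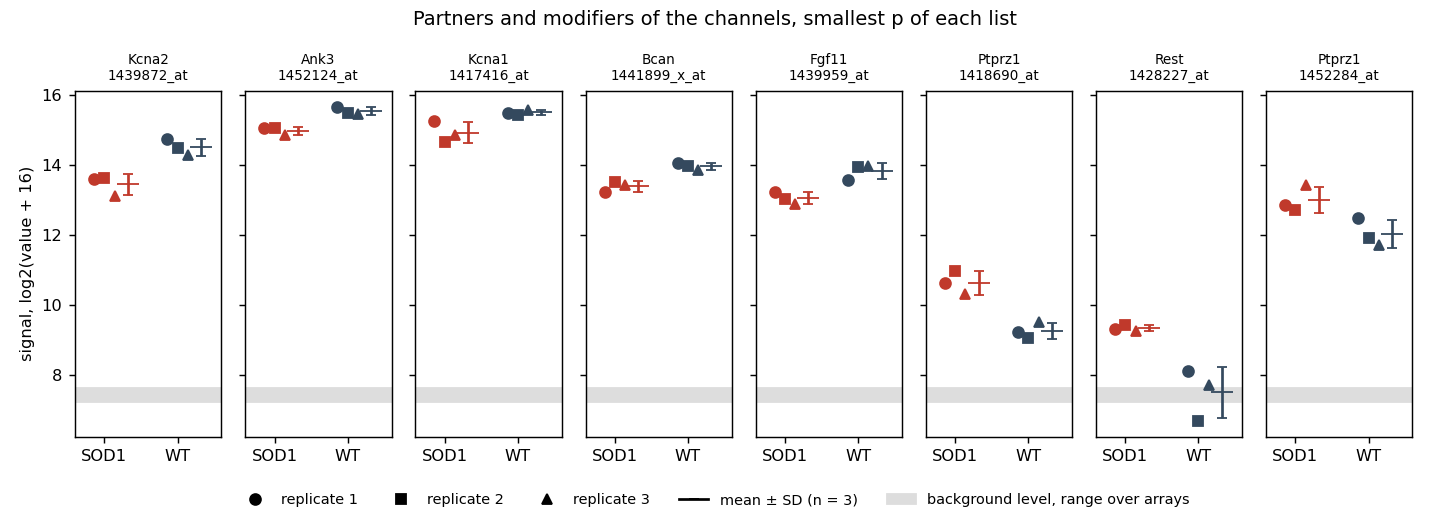
Signal as log2(value + 16) (y axis) of the 4 probe sets with the smallest p among scaffold and node genes (left 4 panels) and among channel modifiers (right 4 panels), SOD1 at left and WT at right in each panel, with bars for mean ± SD and a grey band for the background level. Kcna2, Ank3, Kcna1, Bcan and Fgf11 lie lower in SOD1 and Ptprz1 and Rest higher, with no overlap in any panel and none past the threshold.

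Of 9 other genes of the sodium channel family and its leak channel, 4 were tested with 5 probe sets, and 0 passed by either the adjusted or the unadjusted limma threshold. Nalcn, the sodium leak channel that sets resting excitability, differed by 0.55 ± 0.34 on 1448083_at and by 0.21 ± 0.25 on 1457423_at. Unc80, its large auxiliary subunit, differed by 0.08 ± 0.16 with an interval of -0.27 to 0.43. Scn7a, an atypical family member, differed by -0.49 ± 0.46.

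The probe sets whose pattern over the 6 arrays lay nearest to Scn8a 1423515_at, each centred on its own mean, were ranked by root mean square distance on the log2 scale among 23109 probe sets with 1 symbol. The nearest was Lzts3 (0.05), followed by Auts2 (0.09), Tlcd3b (0.10), Mark4, a kinase of microtubule-associated proteins (0.10), and Mtch2, of the mitochondrial outer membrane (0.11). Their differences were -0.95, -1.02, -1.01, -1.03 and -1.12, and 0 of the 5 passed. For Mtch2, 2 SOD1 arrays were at or below background. Scn4b, at 0.29, came 441st, and the other 2 Scn8a probe sets of high signal lay at 0.25 and 0.29, against a median of 0.70 over all. The arrays share their genotype labels, so a small distance is also the mark of any gene lower in SOD1 by a like amount.

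Markers of several cell types moved with genotype on the same arrays, taken as the mean log2 signal of the highest-signal probe set of each gene. The 15 motor neuron markers averaged 12.99 to 13.15 in SOD1 and 13.23 to 13.37 in WT, a mean difference of -0.20 over genes that went both ways. Of their 20 probe sets tested 0 passed, against 0.185% of all probe sets. At an unadjusted limma p under 0.05, 5 were lower and 0 higher, against 7.58% and 7.09% of all. In 6 every SOD1 array lay below every WT array and in 1 above, against 9.81% and 10.5% of all. Ache, Slc18a3 and Mmp9 were among the 6. Ache, which breaks down acetylcholine, was at -1.06 ± 0.25 (limma, adjusted p = 0.117). Slc18a3, which loads acetylcholine into vesicles, was at -0.996 ± 0.25 (limma, adjusted p = 0.131). Mmp9, a matrix protease of fast motor neurons, was at -0.80 ± 0.26 (limma, adjusted p = 0.210). The differences of Ache, Slc18a3 and Mmp9 were of the size of those of Scn8a and Scn4b. Nefm and Nefh, also among the 6, differed less, by -0.33 and -0.20. Nefl (0.007), Isl2 (-0.002) and Chodl (-0.04) differed little, with the groups overlapping. Other markers were higher, with Slc5a7 at 0.72 ± 0.44, Tbx20 at 0.51 ± 0.28 and Isl1 at 0.23 ± 0.13. Over the 20 probe sets, 13 estimates were negative and 7 positive. The 16 microglial markers averaged 11.48 to 12.71 in SOD1 and 7.98 to 9.89 in WT. Of their 19 probe sets tested, 8 passed the threshold and all 19 had higher estimates in SOD1. For this and the next lists the share past the threshold over all probe sets was 0.185%. The 10 astrocyte markers averaged 13.17 to 13.47 in SOD1 and 12.37 to 12.86 in WT, with 2 of 26 past the threshold. The 9 oligodendrocyte markers averaged 13.49 to 13.68 in SOD1 and 12.54 to 13.14 in WT (0 of 22), and the 11 endothelial and mural markers 7.68 to 9.10 in SOD1 and 9.93 to 11.06 in WT (2 of 15, both lower). The 6 oligodendrocyte precursor markers averaged 10.11 to 10.95 in SOD1 and 9.66 to 11.09 in WT, and the 13 markers of other neuron types 8.10 to 9.43 in SOD1 and 7.70 to 8.59 in WT, with SOD1 replicate 3 the highest array. No marker of these lists was at or below background on all 6 arrays. The part of cell content in the sodium channel values was not tested, and fewer cells of a type cannot be told apart from less RNA per cell. As a rough guide to RNA quality, the 3′ minus 5′ difference of the Actb control was 4.20 to 4.88 in SOD1 and 4.36 to 5.14 in WT. For the Gapdh control it was 3.30 to 3.70 in SOD1 and 3.28 to 4.68 in WT. The groups overlapped in both, and WT replicate 1 was the highest array in both.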

How the data were processed

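RNA from 3 SOD1 and 3 WT samples was hybridised to 6 mouse Affymetrix arrays. The deposited series table holds intensity on a linear scale, already scaled by the authors, since each array had a 2% trimmed mean of 2500.02. Their software is not given in the sources used here. Per the labels' protocols, RNA went through 2 rounds of T7-based amplification.

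Of 45101 probe sets, 64 were controls. Of the rest, 34945 had 1 symbol, 932 several and 9160 none in the platform annotation; all 25 members matched RefSeq (GRCm38.p6) by Entrez ID. Array medians ranged over 0.24 (log2), so values were quantile normalised, 16 was added and log2 taken. Those whose mean lay above the 40th percentile were tested with limma 3.58.1 in R 4.3.3 (lmFit, eBayes with a variance trend, two-sided), adjusted over all of them. Within-array differences between probe sets were compared between the groups with exact permutation tests. The limma step was tested on simulated data. Members below the filter are given from a fit without it. Figures were drawn with matplotlib 3.10.9.

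Named probe sets were all members, up to 4 of each partner list with the smallest p and the 5 nearest to Scn8a in pattern; others were named after their values were seen. The members and lists were chosen with earlier results of these data known. Alternatives were the scaling, pseudocount, filter, variance trend, array weights, replicate block, an Xist term, gene means, the threshold and each array left out; SOD1 replicate 3 against the WT arrays and Scn8a relative to other subunit genes were added after seeing the data.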

Additional observations from a re-analysis of the deposited data

How the results depend on the processing

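The Scn8a probe set with the highest signal kept a negative difference under all alternatives run, from -1.31 with the Xist term to -0.74 (adjusted p = 0.164) as the mean of the gene's probe sets, with limma adjusted p of 0.0483 to 0.348. Leaving out 1 array gave -1.24 to -0.85, and without SOD1 replicate 1 it passed (-1.24, adjusted p = 0.0483). At a threshold of 0.1 it passed at its reported -1.01, as the 1 member of the 18 tested. The count of members past the threshold was 0 to 1 when 1 array was left out. The partner lists had 1 probe set past it, of Kcna2, with a filter at the 60th percentile, with array weights and at a threshold of 0.1. Kcna2 kept -1.06 with the filter and the threshold and was at -1.09 with array weights. Tlcd3b kept -1.01 at the threshold of 0.1 (limma, adjusted p = 0.0986) and was at -1.27 without SOD1 replicate 1.

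Over all probe sets, 50 passed, against 87 with a pseudocount of 64, 106 with the 60th percentile filter, 100 with array weights, 17 over gene means and 191 at a threshold of 0.1. Without the variance trend limma called 0, with 3247 at an unadjusted p under 0.05. Leaving out 1 array gave 0 to 79, with 6 without SOD1 replicate 2, 29 without SOD1 replicate 3, 9 without WT replicate 1, 79 without WT replicate 3, and 0 without WT replicate 2, where 2659 had an unadjusted p under 0.05. The causes were not tested.

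Same-numbered arrays did not deviate together (correlations of deviations 0.03, -0.04 and -0.01 for numbers 1, 2 and 3 across probe sets, which are not independent replicates), and 1 of 6 arrays correlated best with its own number. With the replicate block 76 probe sets passed, the members' count stayed at 0 and Scn8a was at -1.01 (limma, adjusted p = 0.0941).

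Some estimates that did not pass turned sign. With the Xist term these were Scn2a 1435933_at (-0.042), Scn9a 1457819_at (-0.023) and Nalcn 1457423_at (-0.016). For SOD1 replicate 3 against the WT arrays they were Scn2a 1435933_at (-0.067), Nalcn 1457423_at (-0.046), and the Scn8a pairs 1457412_at minus 1451894_a_at (-0.18) and 1439889_at minus 1451894_a_at (-0.38). The last pair was at -0.021 with a pseudocount of 64. Leaving out 1 array gave -0.077 to 0.22 for Scn1a 1450121_at, -0.40 to 0.023 for Scn2a 1427280_at, -0.21 to 1.45 for Scn9a 1442333_a_at, -0.10 to 0.96 for Scn9a 1457819_at, -0.59 to 0.021 for Scn2b 1430648_at and -0.035 to 0.21 for Unc80. It gave -0.063 to 0.13 for the Scn8a pair 1457412_at minus 1439889_at, -0.12 to 0.45 for 1457412_at minus 1451894_a_at and -0.24 to 0.39 for 1439889_at minus 1451894_a_at. The cause was not tested. Signals near background limit Scn3b, Scn3a and the low Scn8a and Scn9a probe sets.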
